A study of Caenorhabditis elegans with 4 samples.

Results

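The fbxa genes (F-box A) of Caenorhabditis elegans were examined in whole L3 larvae of met-2 set-25 double mutants and of the wild-type strain N2, with 2 libraries of poly(A) RNA for each genotype. Members were all protein-coding genes in the deposited counts whose symbol is fbxa- followed by a number, which gave 170 of 46748 genes under 169 symbols, since 2 gene entries carry the name fbxa-41. The mutant strain is GW638, met-2(n4256) set-25(n5021), the wild type is Bristol N2, and both were grown at 20 °C. MET-2 and SET-25 methylate lysine 9 of histone H3, a mark of silent chromatin that is concentrated on the arms of the worm's autosomes, so the comparison asked which fbxa RNAs differed in animals mutant for both enzymes. The library labels rWQS029 and rWQS045 (met-2 set-25) and rWQS019 and rWQS042 (N2) name the individual libraries here, and values are given in that order.

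An F-box protein is the substrate receptor of an SCF ubiquitin ligase. The F-box binds a Skp1-type adaptor, the adaptor binds a cullin, and the cullin holds the RING protein that recruits the ubiquitin-conjugating enzyme, while the rest of the F-box protein selects what is ubiquitylated. Proteins of the FBXA group typically carry, beside the F-box, an FTH domain (also called DUF38), and the group is one of the large F-box expansions of the worm genome, with most of its members uncharacterised. FOG-2, an F-box protein with the same FTH domain that promotes sperm production in hermaphrodites, is a well-studied relative outside the fbxa names. FBXA-75 and FBXA-158 are known in the worm as partners of the cullin CUL-6 in the intracellular pathogen response, a programme induced by microsporidia and viruses of the intestine.

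Most of the group lay on 2 autosomes, chromosome V with 71 members and chromosome III with 60. Chromosomes II and X held 14 each, chromosome I 6 and chromosome IV 5. Of the 170, 132 lay on autosomal arms and 24 in autosomal centres. Their summed exon length ran between 519 and 5668 bases, with a median of 1135.5. Neighbouring members were frequent: 117 of 170 stood in 25 groups in which each start was within 20 kb of the next. Near-identical copies can share reads, and how such reads were counted is not given in the sources used here, so values of close relatives are uncertain. Exons of 35 members overlap another gene, and the library kit did not mark strand, so reads of the overlapping genes cannot be told apart. None of the 9 members named next as higher in the mutant has such an overlap.

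Total counts per library were between 22849521 and 56879896, and levels are given as counts per 1e6 (CPM) scaled by TMM factors. The met-2 RNA was at 31.8 and 35.3 CPM in met-2 set-25 and at 62.0 and 55.8 CPM in N2, without overlap, but with an edgeR adjusted p of 0.34. The set-25 RNA was at 11.5 and 11.6 CPM in met-2 set-25 and at 11.4 and 17.5 CPM in N2, so it did not separate the genotypes. A deletion can leave RNA outside the deleted part, and where each deletion lies relative to the counted reads was not analysed here. RNA came from whole animals, so fewer cells of a type and less RNA per cell cannot be told apart. Markers of several tissues moved with genotype or library. Germline markers summed to 1107 and 2185 CPM in met-2 set-25 and to 443 and 470 CPM in N2. Of these, 10 of 10 were higher without overlap, against 22.1% of all tested genes, and 8 passed DESeq2 as higher, against 2.49%. Adult yolk and oocyte markers summed to 66.97 and 104 CPM in met-2 set-25 and to 18.2 and 22.3 CPM in N2, of which cbd-1, an eggshell gene, made up 50.6 and 84.9 CPM in met-2 set-25 and 7.78 and 13.96 CPM in N2. The yolk gene vit-1 was at 7.25 and 4.03 CPM in met-2 set-25 and at 1.70 and 1.66 CPM in N2. Of this list cbd-1 and vit-1 passed DESeq2, vit-1 with an adjusted p of 0.029. By contrast, vit-2, vit-3, vit-4 and vit-5 were at 0.279 CPM or less in every library. Neuronal markers summed to 625 and 537 CPM in met-2 set-25 and to 881 and 741 CPM in N2, with 8 of 8 fold changes below 0. Of all tested genes, 51.6% had a fold change above 0. Sperm markers stayed low, at 2.91 and 3.11 CPM in met-2 set-25 and 3.13 and 2.52 CPM in N2. The part of these markers in the values of the fbxa genes was not tested.

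Most fbxa genes were expressed at a low level in both genotypes. At least 10 counts were found for 112 and 109 members in met-2 set-25 and for 95 and 115 in N2, and 8 members had no count in any library. The median member stood at 0.976 and 0.56 CPM in met-2 set-25 and at 0.565 and 0.385 CPM in N2. All members together summed to 682 and 550 CPM in met-2 set-25 and to 431 and 375 CPM in N2, so both mutant libraries lay above both N2 libraries. A single gene, fbxa-72, made up 16.1% and 15.2% of that sum in met-2 set-25, against 6.16% and 7.73% in N2. Without fbxa-72 the sums were 573 and 466 CPM in met-2 set-25 and 404 and 346 CPM in N2, still without overlap.

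In edgeR's quasi-likelihood test none of the 116 fbxa genes with enough counts passed an adjusted p of 0.05, and neither did any other of the 15978 genes tested (0%), the smallest adjusted p being 0.066. At an adjusted p under 0.1, 3 fbxa genes were higher (fbxa-182, fbxa-206 and fbxa-170, each at 0.0977), or 2.59% of the 116, against 0.557% of all tested genes. An unadjusted p under 0.05 was reached by 21 fbxa genes that were higher in met-2 set-25, or 18.1% of those tested, against 6.2% of all tested genes, and by 5 that were lower, or 4.31% against 3.87%. With DESeq2, the tool of the study, 9 of 122 members rose at an adjusted p under 0.05, or 7.38%, against 2.49% of 16562 genes, and none fell, against 0.821%. In the following, "rose" and "fell" refer to this DESeq2 threshold. Among the 116 genes, 44 had both mutant libraries above both N2 libraries, or 37.9% against 22.1% of all tested genes, and 12 had both below, or 10.3% against 21.1%. The median edgeR log2 fold change was 0.34 over the fbxa genes and 0.02 over all tested genes, and 75 of 116 lay above 0, or 64.7% against 51.6%. The filter on low counts can pass a gene for its level in 1 genotype alone, neighbours share sequence, and these shares are given as a description. Protein-coding genes of the autosomal arms, where most members lie, ran higher than all genes, with 4.12% rising by DESeq2, 9.86% higher at an unadjusted edgeR p under 0.05, 28.4% higher without overlap, 59.5% above 0 and a median of 0.13. Over the same fbxa genes, of which 115 were tested without rWQS045, the median was -0.06 without rWQS029 and between 0.33 and 0.62 with each of the other libraries left out.

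The 9 genes that rose were fbxa-182, fbxa-206, fbxa-170, fbxa-72, fbxa-114, fbxa-163, fbxa-115, fbxa-135 and fbxa-158. No substrate or role is assigned here to any of them except fbxa-158. In all 9, both mutant libraries lay above both N2 libraries, which selection on these same libraries favours, and 6 averaged under 2 CPM in N2. Their edgeR adjusted p-values were between 0.0977 and 0.431. Of the 9, 5 lie on chromosome V, among 51 members with a DESeq2 adjusted p, or 9.8% against 3.19% of its protein-coding genes. On chromosome II 3 of 11 rose, or 27.3% against 2.65%, and on chromosome X 1 of 8, or 12.5% against 0.807%. None of 44 rose on chromosome III, where 2.16% of protein-coding genes did, a share at which few calls among 44 would be looked for. All 11 of chromosome II and all 44 of chromosome III lie on arms, where 4.79% and 3.53% of protein-coding genes rose. On the arms of chromosome V 4 of 39 members rose, or 10.3% against 4.81%. Fewer of the 9 were called when an N2 library was left out. In such a fit the spread comes from the mutant libraries alone, so a lost call does not by itself show dependence on that N2 library. The DESeq2 log2 fold changes of all 9 stayed positive. Without rWQS019 and without rWQS042 they were 1.77 and 1.95 for fbxa-114, and 4.27 and 7.03 for fbxa-163. Of the 9, only fbxa-182 and fbxa-206 were called in every fit with 1 library left out.

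fbxa-182, on the left arm of chromosome II (WBGene00018353, WBcel235 II:2409633-2412749), was at 16.7 and 26.4 CPM in met-2 set-25 and at 1.91 and 1.17 CPM in N2. Its DESeq2 log2 fold change was 3.84 ± 0.50 (SE, adjusted p = 1.1e-11), the smallest adjusted p of the group, and its edgeR adjusted p was 0.0977. fbxa-206, on the right arm of chromosome V (WBGene00013610, V:16917201-16918478), was at 15.2 and 15.5 CPM in met-2 set-25 and at 2.17 and 1.49 CPM in N2. The mutant libraries nearly coincided, and the DESeq2 log2 fold change was 3.10 ± 0.43 (SE, adjusted p = 1.4e-10). fbxa-170, on chromosome X (WBGene00016486, X:1676205-1678121), had 107 and 84 counts in met-2 set-25 and 1 and 5 counts in N2. It was thus close to the floor of the N2 libraries, its DESeq2 log2 fold change was 5.002 ± 0.886 (SE, adjusted p = 2.6e-06), and without rWQS042 the adjusted p was 0.072.

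fbxa-72 (WBGene00017962, V:674886-676753) was the most abundant member in both genotypes per kilobase of exon. It was at 110 and 83.5 CPM in met-2 set-25 and at 26.6 and 29.0 CPM in N2. The genotypes lay far apart relative to the difference within each, and the DESeq2 log2 fold change was 1.81 ± 0.36 (SE, adjusted p = 7.0e-05). With 1 N2 library left out DESeq2 no longer called it, although its log2 fold change was 1.72 without rWQS019 and 1.90 without rWQS042. The low-abundance call fbxa-163 (WBGene00015598, II:1609252-1610730) had 22 and 66 counts in met-2 set-25 and 0 and 3 counts in N2. Its fitted DESeq2 log2 fold change of 4.93 ± 1.34 (SE, adjusted p = 0.011) therefore rests on an N2 level at the floor, where 3 counts correspond to 0.13 CPM in rWQS019 and 0.0525 CPM in rWQS042, and it was called without rWQS029 but not without rWQS019 (adjusted p = 0.25) or rWQS042 (adjusted p = 0.18), while without rWQS045 DESeq2 gave no adjusted p.

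**Figure D1:**
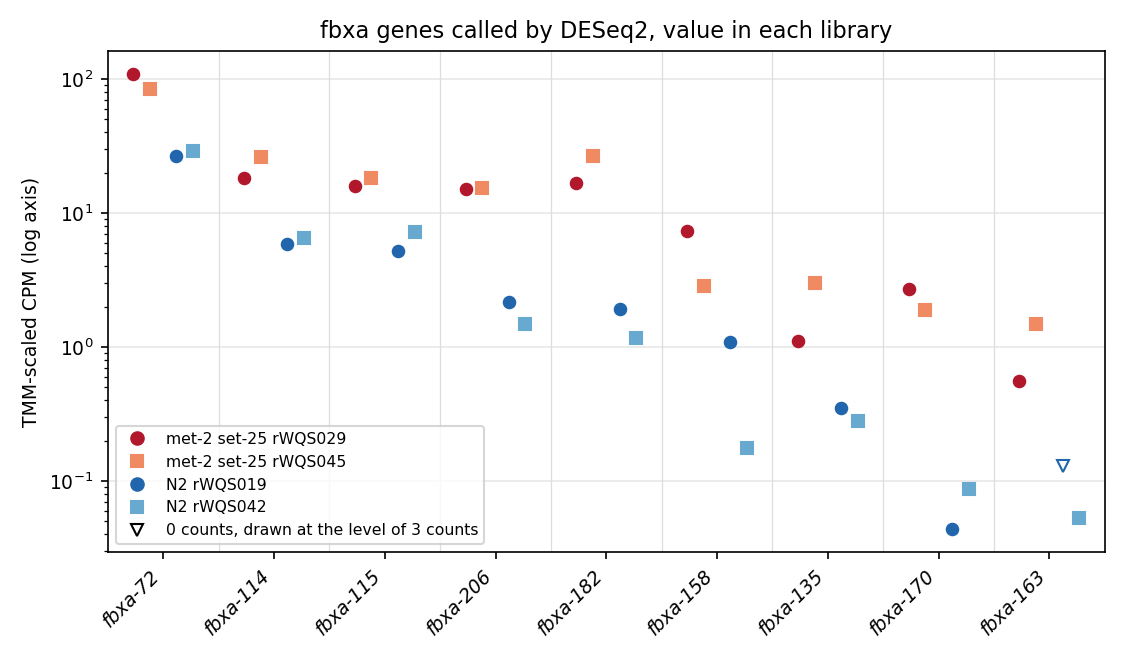
TMM-scaled CPM on a log axis of the 9 fbxa genes that DESeq2 called, with 1 point per library, the met-2 set-25 libraries left of the N2 libraries for each gene and a triangle for a library with 0 counts. In all 9 genes both mutant points lie above both N2 points, which selection on these same libraries favours, and 6 genes average under 2 CPM in N2.

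fbxa-114 and fbxa-115 stand near each other at the right end of chromosome V. fbxa-114 (WBGene00013758, V:20201616-20202874) was at 18.3 and 26.4 CPM in met-2 set-25 and at 5.91 and 6.50 CPM in N2, with a DESeq2 log2 fold change of 1.86 ± 0.41 (SE, adjusted p = 5.2e-04). fbxa-115 (WBGene00013755, V:20190535-20192152) was at 15.99 and 18.1 CPM in met-2 set-25 and at 5.17 and 7.18 CPM in N2, with a DESeq2 log2 fold change of 1.47 ± 0.41 (SE, adjusted p = 0.013). Neither was called without rWQS019 (adjusted p of 0.49 for fbxa-114 and 1.0 for fbxa-115) or without rWQS042 (0.22 and 0.35), and fbxa-115 was not called without rWQS045 either (0.089).

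fbxa-158 (WBGene00015602, II:1619814-1621280), the known CUL-6 partner, was at 7.30 and 2.87 CPM in met-2 set-25 and at 1.09 and 0.175 CPM in N2. Its DESeq2 log2 fold change was 3.08 ± 0.91 (SE, adjusted p = 0.027), and the call was lost without rWQS029 (adjusted p = 0.20) and without rWQS042 (0.39). fbxa-135 (WBGene00011539, V:15402264-15404409), in the central part of the chromosome, was at 1.12 and 2.98 CPM in met-2 set-25 and at 0.348 and 0.28 CPM in N2. Its DESeq2 log2 fold change was 2.74 ± 0.80 (SE, adjusted p = 0.023), and it was called without rWQS029 and in no other fit with a library left out, the adjusted p being 0.77 without rWQS045, 0.40 without rWQS019 and 0.54 without rWQS042.

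Other members reached a small unadjusted p without passing either adjusted threshold. fbxa-134 was at 0.913 and 1.10 CPM in met-2 set-25 and at 0.174 and 0.228 CPM in N2 (edgeR log2 fold change 2.28, unadjusted p = 0.0057). fbxa-174 had 14 and 26 counts in met-2 set-25 and 1 and 3 counts in N2 (edgeR log2 fold change 3.17, unadjusted p = 0.0051). Both separated the genotypes at low counts. On the other side, fbxa-89 had 4 and 4 counts in met-2 set-25 and 11 and 28 counts in N2 (edgeR log2 fold change -2.31, unadjusted p = 0.0079), and fbxa-152 had 8 and 6 counts in met-2 set-25 and 14 and 37 counts in N2 (-1.89, unadjusted p = 0.015). fbxa-107 was at 1.32 and 1.82 CPM in met-2 set-25 and at 4.17 and 4.24 CPM in N2 (-1.42, unadjusted p = 0.014, DESeq2 adjusted p = 0.082). These 3 had the largest negative fold changes of the group, and in each both mutant libraries lay below both N2 libraries. FBXA-75's gene, fbxa-75, had 2 and 8 counts in met-2 set-25 and no count in N2, too few to be tested.

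The order of levels within the group differed between the genotypes in part. Per kilobase of exon, the 6 highest members in N2 were, in this order, fbxa-72, fbxa-65, fbxa-64, fbxa-6, fbxa-74 and fbxa-105. fbxa-72 was at 90.8 and 69.1 CPM per kb in met-2 set-25 and at 21.97 and 24.0 CPM per kb in N2. fbxa-65 was at 16.9 and 12.5 CPM per kb in met-2 set-25 and at 10.9 and 16.8 CPM per kb in N2. fbxa-64 was at 13.7 and 12.96 CPM per kb in met-2 set-25 and at 11.5 and 15.6 CPM per kb in N2. For fbxa-64 and fbxa-65 the values of the genotypes overlapped. fbxa-6 was at 9.53 and 8.40 CPM per kb in met-2 set-25 and at 14.1 and 9.53 CPM per kb in N2. fbxa-74 was at 13.2 and 3.97 CPM per kb in met-2 set-25 and at 11.6 and 10.4 CPM per kb in N2, and fbxa-105 was at 6.74 and 3.41 CPM per kb in met-2 set-25 and at 16.3 and 5.26 CPM per kb in N2. In N2 fbxa-72 stood above the others in both libraries, and the neighbours in the order after it overlapped. Apart from fbxa-72, none of these 6 members passed an adjusted threshold. In met-2 set-25 the second rank was held by fbxa-114, which was 18th in N2, the 4th by fbxa-115, which was 16th in N2, and the 8th by fbxa-206, which was 59th in N2.

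Levels that were found in 1 genotype alone were few and low. With 0 counts in both N2 libraries, 11 members had at least 1 count in met-2 set-25, and the highest of them were fbxa-165, with 4 and 25 counts, and fbxa-164, with 3 and 8. The reverse held for 2 members, of which fbxa-12 had 5 and 9 counts in N2 and fbxa-103 had 1 and 0. None of these members passed an adjusted threshold. Several of the 11 had no more than 3 counts in total, namely fbxa-224, fbxa-56, fbxa-28, fbxa-155, fbxa-213, fbxa-131 and fbxa-221. The N2 library rWQS019 had the fewest total counts of the 4 libraries, 22849521, and a shallow library misses more low genes. The share of all genes with counts in 1 genotype alone was not computed, so the numbers 11 and 2 are not read as a trait of the group.

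The fold changes were not alike across chromosomes. The median edgeR log2 fold change was 0.57 over the 49 tested members on chromosome V, 0.95 over 10 on chromosome II and 0.04 over 43 on chromosome III, whereas all tested protein-coding genes of these chromosomes had medians of -0.03, 0.08 and 0.08. Protein-coding genes of their arms alone had medians of 0.08, 0.18 and 0.13. The 4 tested members on chromosome I had a median of 1.30, the 3 on chromosome IV 0.81 and the 7 on chromosome X 0.28. On chromosome I, fbxa-216 was at 19.8 and 19.4 CPM in met-2 set-25 and at 5.61 and 9.999 CPM in N2 (edgeR log2 fold change 1.32, unadjusted p = 0.017), without passing an adjusted threshold. With all 4 libraries, members of chromosome III thus had a lower median than those of chromosomes II and V. The distance from chromosome V turned on the mutant library. Without rWQS029 the medians were -0.74 on chromosome III and 0.19 on chromosome V. Without rWQS045 they were 0.49, with 33 of 43 above 0, and 0.55, with 37 of 49 above 0. No test of the difference between chromosomes was made because genes are not replicates.

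**Figure D2:**
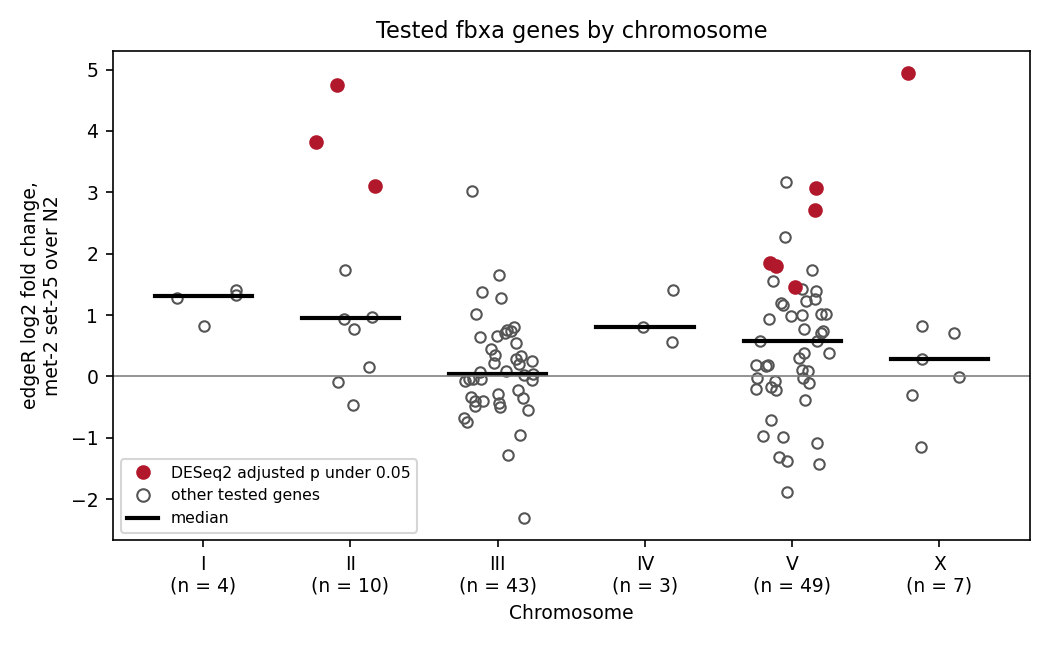
edgeR log2 fold change, met-2 set-25 over N2, of the 116 tested fbxa genes, grouped by chromosome, with DESeq2 calls filled and the median of each chromosome as a line. The 43 genes of chromosome III centre on 0.04 and hold no call, while chromosome V holds 5 calls, chromosome II 3 and chromosome X 1. Of all protein-coding genes of chromosome III with a DESeq2 adjusted p, 2.16% rose, and of those on its arms 3.53%.

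The members of chromosome III differed more between the mutant libraries than between the genotypes. Of the 43 tested, 40 were higher in rWQS029 than in rWQS045, or 93%, against 39.6% of the protein-coding genes of the chromosome. The median log2 ratio of rWQS029 over rWQS045 was 0.82 for these members, with 0.5 added to each CPM, and -0.12 for the protein-coding genes of chromosome III. The ratio was 0.08 for the members of chromosome V, with 27 of 49 higher in rWQS029, and -0.16 for those of chromosome II, with 3 of 10 higher. On chromosome X 6 of 7 members were higher in rWQS029, with a median of 0.43, against 61.1% of the protein-coding genes of that chromosome, and of the fbxb genes 9 of 12 were higher, so the direction was not found on chromosome III alone. Between the N2 libraries 28 of 43 chromosome III members were higher in rWQS019, with a median log2 ratio over rWQS042 of 0.19. Summed over chromosome III, members reached 245 and 119.3 CPM in met-2 set-25 and 193 and 156 CPM in N2, so the N2 sums lay between those of the mutant libraries.

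Single genes showed the same span. fbxa-14 was at 13.8 and 2.82 CPM in met-2 set-25 and at 7.78 and 9.68 CPM in N2. fbxa-79 was at 9.38 and 2.20 CPM in met-2 set-25 and at 10.9 and 6.02 CPM in N2, and fbxa-74 was at 23.3 and 7.01 CPM in met-2 set-25 and at 20.5 and 18.4 CPM in N2. In these 3 genes rWQS045 was the lowest of the 4 libraries. For fbxa-74 the DESeq2 log2 fold change was -0.35 with all 4 libraries and -1.44 without rWQS029, where rWQS045 was the only mutant library. The adjacent genes fbxa-71 and fbxa-43 were instead high in rWQS029 alone. fbxa-71 had 179 and 3 counts in met-2 set-25 and 4 and 13 counts in N2, and fbxa-43 was at 2.46 and 0.381 CPM in met-2 set-25 and at 0.217 and 0.14 CPM in N2. Without rWQS029 the median fold change of the 43 members was -0.74 on the log2 scale with 9 above 0, and without rWQS045 it was 0.49 with 33 above 0, so their direction between the genotypes differed with the mutant library used. The N2 libraries moved this median less, to 0.13 without rWQS019 and -0.05 without rWQS042, with 25 and 21 members above 0. On chromosome II the same medians were 1.27 over 10 members without rWQS029 and 1.19 over the 9 that were tested without rWQS045. Over the 49 members of chromosome V they were 0.19 and 0.55.

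Tissue markers also differed between the mutant libraries. Epidermal markers summed to 1379 CPM in rWQS029 and 8175 CPM in rWQS045, against 3696 and 4477 CPM in N2, and pharyngeal markers to 2727 and 1185 CPM, against 1434 and 1760 CPM in N2. The epidermal gap lay mostly in the collagen genes sqt-3, dpy-13 and rol-6. Of the listed transcription factor genes, lin-26 was at 87.8 and 103 CPM in rWQS029 and rWQS045 and lin-29 at 57.8 and 86.1 CPM. In contrast, elt-3, at 63.1 and 39.8 CPM, went the other way. In N2 lin-29 was at 23.5 and 29.6 CPM, and it rose between the genotypes (DESeq2 adjusted p = 0.020). Of the listed pharyngeal transcription factor genes, pha-4 was at 36.9 and 37.3 CPM in rWQS029 and rWQS045 and ceh-22 at 11.6 and 6.32 CPM. Germline markers were higher in rWQS045 in 10 of 10 genes, whereas 49.3% of all tested genes were higher in rWQS029. Intestinal markers summed to 3128 and 2846 CPM in met-2 set-25 and to 2768 and 3355 CPM in N2, and body muscle markers to 11591 and 13804 CPM in met-2 set-25 and 10195 and 12635 CPM in N2. Whether stage or tissue make-up of the libraries had a part in the fbxa values was not tested.

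**Figure D3:**
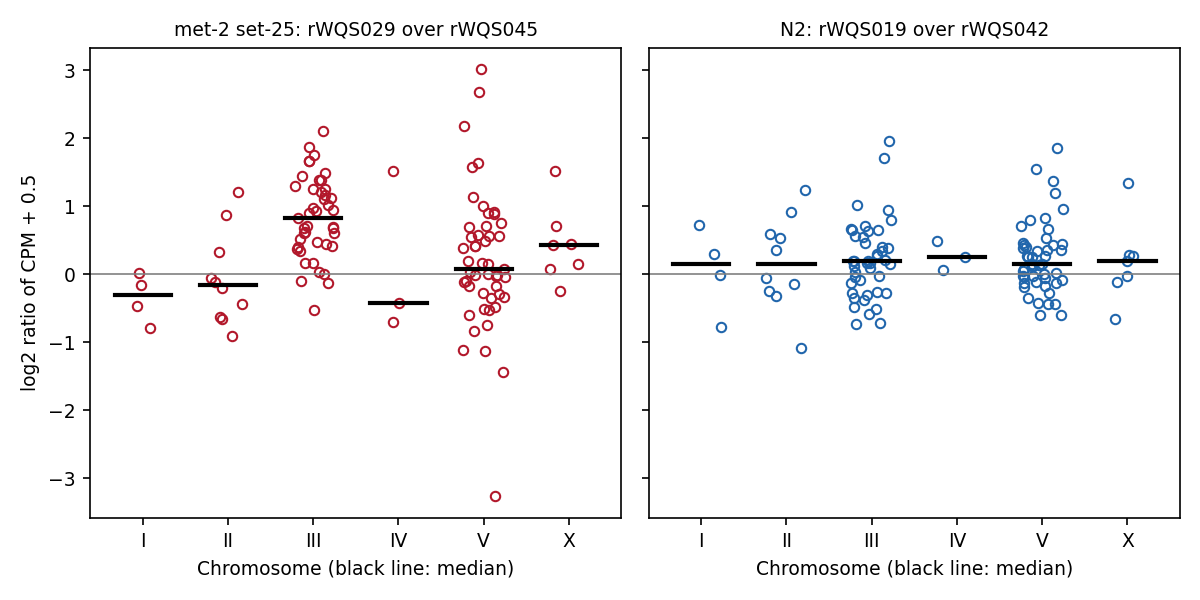
log2 ratio of CPM + 0.5 between the libraries of 1 genotype for the 116 tested fbxa genes by chromosome, with rWQS029 over rWQS045 for met-2 set-25 on the left and rWQS019 over rWQS042 for N2 on the right, and black lines at the medians. Chromosome III stands at 0.82 in the left panel with 40 of 43 genes above 0, and at 0.19 in the right panel.

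Neighbouring members moved together in some groups and apart in others. Among 92 neighbouring pairs both genes were tested in 54, and their fold changes had the same sign in 32 and opposite signs in 22. Since 64.7% of all tested members lay above 0, equal signs are favoured in any pairing, and no share for random pairs was computed. The group with the most members, 26 within 110.4 kb of chromosome III, had 10 of 20 tested genes above 0 and 10 below. On chromosome II, 6 members stood within 15.4 kb on the same strand, in the order fbxa-163, fbxa-164, fbxa-165, fbxa-166, fbxa-158 and fbxa-160, and the 3 that edgeR tested were all higher in the mutant libraries. Of these, fbxa-163 and fbxa-158 rose, and fbxa-166 was at 2.71 and 3.85 CPM in met-2 set-25 and at 0.435 and 1.49 CPM in N2 (edgeR log2 fold change 1.73, unadjusted p = 0.050, DESeq2 adjusted p = 0.25). Of the others, fbxa-165 had a DESeq2 adjusted p of 0.14, fbxa-164 had too few counts for an adjusted p, and fbxa-160 had no count in any library.

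The call at fbxa-182 was not shared by the member next to it. fbxa-4, 1374 bases away on the same strand, was at 4.94 and 5.18 CPM in met-2 set-25 and at 4.13 and 4.97 CPM in N2, with an edgeR log2 fold change of 0.15 (unadjusted p = 0.66). A difference in direction was seen within 5 kb of chromosome V, where fbxa-107, with its negative fold change, is followed by fbxa-210 and fbxa-211. fbxa-210 was at 10.5 and 18.1 CPM in met-2 set-25 and at 7.26 and 7.13 CPM in N2 (edgeR log2 fold change 0.99, unadjusted p = 0.045). fbxa-211 was at 3.22 and 5.13 CPM in met-2 set-25 and at 2.09 and 1.42 CPM in N2 (1.26, unadjusted p = 0.038). All 3 genes separated the genotypes without overlap, fbxa-107 downwards and its neighbours upwards, and none passed an adjusted threshold. On chromosome I the adjacent fbxa-101 and fbxa-140 were both higher in the mutant libraries. fbxa-101 was at 13.9 and 24.6 CPM in met-2 set-25 and at 7.91 and 7.93 CPM in N2, and fbxa-140 was at 4.59 and 5.15 CPM in met-2 set-25 and at 2.09 and 1.59 CPM in N2, with DESeq2 adjusted p-values of 0.11 and 0.055.

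**Figure D4:**
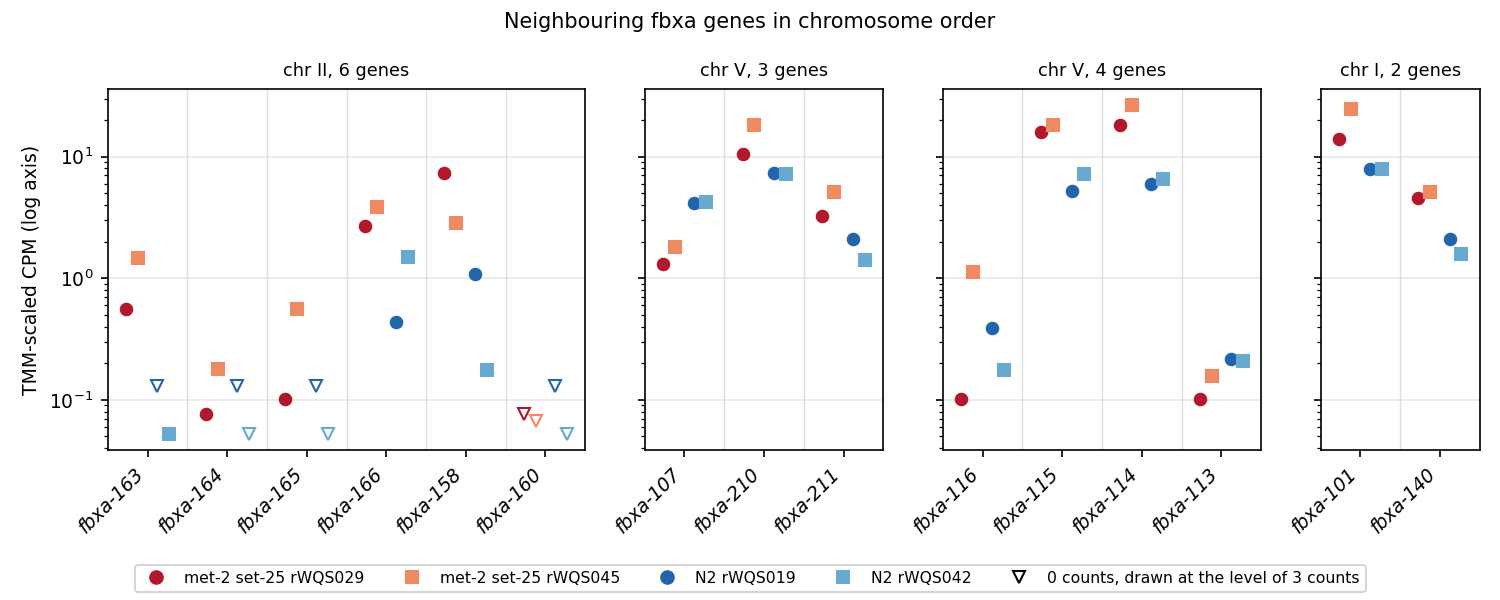
TMM-scaled CPM on a log axis of fbxa genes in 4 groups of neighbours, in chromosome order within each panel, with 1 point per library, met-2 set-25 left of N2, and triangles for 0 counts. fbxa-163, fbxa-166 and fbxa-158 lie higher in the mutant on chromosome II, while on chromosome V fbxa-107 lies lower and fbxa-210 and fbxa-211 beside it lie higher.

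The right end of chromosome V joined fbxa genes with their relative fog-2. Within 16.9 kb stand fbxa-116, fbxa-115, fbxa-114 and fbxa-113, and fog-2 ends 968 bases before fbxa-114 begins. fog-2 was at 8.34 and 15.8 CPM in met-2 set-25 and at 3.09 and 3.24 CPM in N2, and it rose with a DESeq2 log2 fold change of 1.95 ± 0.51 (SE, adjusted p = 0.0062). The call was kept without rWQS029 and lost without rWQS045 (adjusted p = 0.16), rWQS019 (0.53) or rWQS042 (0.30). ftr-1, its close paralogue, was at 6.44 and 10.8 CPM in met-2 set-25 and at 3.65 and 2.82 CPM in N2, with a DESeq2 adjusted p of 0.088, and the pair can share reads. fbxa-116 (0.101 and 1.12 CPM in met-2 set-25, 0.391 and 0.175 CPM in N2) and fbxa-113 (0.101 and 0.157 CPM in met-2 set-25, 0.217 and 0.21 CPM in N2) were low in all libraries, the first overlapping between the genotypes and the second below N2 in both mutant libraries. The germline markers given above were also higher in both mutant libraries, and their part in the values of fog-2 and its neighbours was not tested.

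Of the 18 protein-coding genes that flank the 9 calls, 12 are not fbxa genes. Most of these 12 had no DESeq2 adjusted p and so could not be called. Of those with one, 2 rose, fog-2 and Y102A5C.2, while sru-25, Y113G7B.27 and meg-4 did not. Over all genes 2.49% of 16562 rose. Y102A5C.2 starts 253 bases after fbxa-206 on the opposite strand and was at 10.5 and 12.4 CPM in met-2 set-25 and at 1.35 and 0.806 CPM in N2 (DESeq2 adjusted p = 3.1e-10), a separation like that of fbxa-206 itself. Elsewhere the flanking genes were mostly near the floor. sru-25 and srx-21, of chemoreceptor families, flank fbxa-72 and were at no more than 0.291 CPM in any library.

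The other components of the ligase were compared in the same way. The 17 genes listed for the SCF core and neddylation, the modification that activates cullins, held no DESeq2 call and no unadjusted edgeR p under 0.05. Over all genes 2.49% rose, and 6.2% were higher and 3.87% lower at that unadjusted p. Few such genes would thus be looked for among 17. Their median edgeR log2 fold change was 0.17, and 14 lay above 0, or 82.4% against 51.6% of all tested genes. Both mutant libraries lay above both N2 libraries in 9, or 52.9% against 22.1%, and below in 1, or 5.88% against 21.1%. skr-1, the Skp1 adaptor of most worm SCF complexes, was at 246 and 231 CPM in met-2 set-25 and at 284 and 242 CPM in N2. cul-1, the cullin of these complexes, was at 79.1 and 103 CPM in met-2 set-25 and at 80.3 and 85.7 CPM in N2. Neither separated the genotypes beyond the spread of the libraries. None of the 6 cullin genes was called, and few calls would be looked for among 6 at the share of all genes. cul-6 was at 27.5 and 12.3 CPM in met-2 set-25 and at 7.87 and 10.8 CPM in N2 (edgeR log2 fold change 1.09, unadjusted p = 0.071).

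Of 20 Skp1-related genes found, 12 were tested, 2 rose, or 16.7% against 2.49% of all genes, and none fell, and the median edgeR log2 fold change was 0.39. skr-4, an adaptor known to act with CUL-6, was at 45.8 and 42.2 CPM in met-2 set-25 and at 8.61 and 8.06 CPM in N2, with a DESeq2 log2 fold change of 2.41 ± 0.34 (SE, adjusted p = 6.9e-10), and was called without each library in turn. skr-2, the close paralogue of skr-1, was at 62.4 and 97.1 CPM in met-2 set-25 and at 27.4 and 24.3 CPM in N2, with a DESeq2 log2 fold change of 1.64 ± 0.42 (SE, adjusted p = 0.0044), lost without rWQS019 (0.53) and without rWQS042 (0.45). The other adaptors of the CUL-6 complex did not pass: skr-3 was at 130 and 75.8 CPM in met-2 set-25 and at 76.8 and 88.2 CPM in N2, and skr-5 was at 9.10 and 2.20 CPM in met-2 set-25 and at 1.78 and 1.07 CPM in N2. rcs-1, the RING protein of that complex, was at 62.3 and 49.6 CPM in met-2 set-25 and at 30.6 and 39.2 CPM in N2 (DESeq2 adjusted p = 0.55). Of the components of the CUL-6 ligase measured here, skr-4 and fbxa-158 thus rose with all 4 libraries, and fbxa-75 had too few counts. For cul-6 and skr-5 the size of the difference turned on the mutant library. Without rWQS045 their DESeq2 log2 fold changes were 1.54 and 2.69, and without rWQS029 they were 0.42 and 0.67. Each of these fits holds 1 mutant library and takes its spread from N2 alone, so no call is read from them. Of 13 genes listed for the intracellular pathogen response, 11 were tested, 2 rose (skr-4 and eol-1), or 18.2% against 2.49% of all genes, and none fell, with a median edgeR log2 fold change of 1.23. This list holds skr-3, skr-4, skr-5, cul-6 and rcs-1, which are given above. The skr-4 call thus enters both this share and that of the Skp1-related genes, and outside those ligase genes only eol-1 rose. The eol-1 call was lost without rWQS042 (adjusted p = 0.093).

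**Figure D5:**
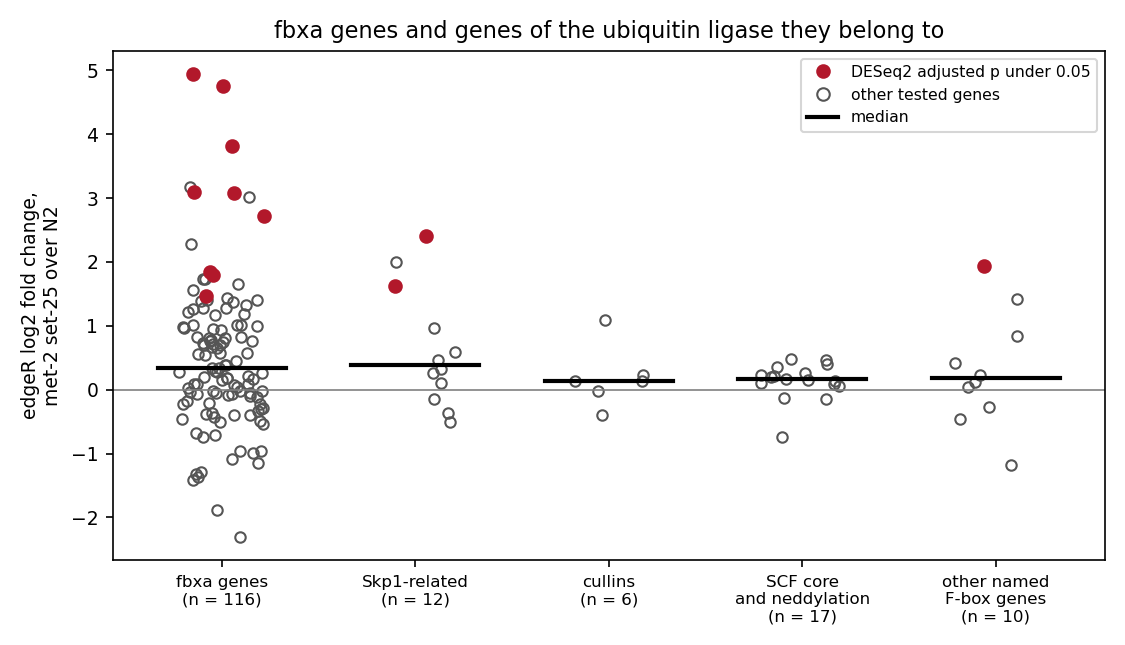
edgeR log2 fold change, met-2 set-25 over N2, of the 116 tested fbxa genes and of the tested genes of 4 lists, of ligase components and of individually named F-box genes, with DESeq2 calls filled and medians as lines. The fbxa genes span -2.31 to 4.94 with 9 calls, the Skp1-related genes hold 2 calls, and the 6 cullins and the 17 genes of the SCF core and neddylation hold none. Over all genes 2.49% rose, a share at which few calls would be looked for in lists of 6 and 17.

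A smaller share of the other numbered F-box groups of the worm had enough counts to be tested than of the fbxa genes, of which 68.2% did. Of 104 fbxb genes 12 were tested by edgeR, with a median log2 fold change of 0.12, and 2 of 14 rose with DESeq2 (14.3%). Of 48 fbxc genes 17 were tested, with a median of -0.02, and 1 of 18 rose (5.56%). The difference between the groups was not tested. In a list of 10 individually named F-box genes, fog-2 alone rose, or 10% against 2.49% of all genes.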

How the data were processed

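Poly(A) RNA of whole L3 larvae was sequenced from 2 met-2 set-25 and 2 N2 libraries. The deposited values were raw counts, unnormalised, from reads that the authors aligned with STAR to ce10 (annotation WS235). Counting is credited to HTSeq in the methods and to featureCounts in the submitters' processing notes, without versions in the sources used here. Columns name the genotype and a library but no replicate number. The labels do not say whether each library had its own culture, and p-values therefore cover the spread among these 4 libraries alone, possibly technical.

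The main test was edgeR 4.0.16 (R 4.3.3), quasi-likelihood, genotype as the only term, filterByExpr, TMM scaling and Benjamini-Hochberg adjustment over 15978 genes. DESeq2 1.42.0 was the first alternative, with limma 3.58.1 (voom), other scalings, filters and left-out libraries. Where 1 library was left out, the lone sample was assumed to vary like the other genotype. Scripts were tested on simulated counts. Positions are those of the WBcel235 annotation (Ensembl 115), matched by gene identifier, and 46449 of 46748 genes matched. A count of 0 allowed 0.076 and 0.0672 TMM-scaled CPM in met-2 set-25 and 0.13 and 0.0525 in N2 (3 counts, counting error only).

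Genes named were fbxa genes with a DESeq2 adjusted p under 0.05 or an edgeR p under 0.01, the 6 highest in N2 per kilobase, the 3 largest fold changes each way, fbxa-75 and fbxa-158, and up to 4 genes per list by edgeR p. Others, such as fbxa-14, fbxa-71, fbxa-101, fbxa-216 and fbxa-210, were named for their position or pattern after their values were seen. Members and lists were chosen with earlier results of these data known.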

Additional observations from a re-analysis of the deposited data

How the results depend on the processing

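edgeR's quasi-likelihood test called 0 fbxa genes at an adjusted p under 0.05, and so did limma voom, RLE factors, library sizes alone, a mean of at least 1 CPM and leaving out genes that overlap another. DESeq2 called 9 higher, edgeR without a filter on low counts 18 higher and 1 lower, and edgeR's likelihood ratio test, added after the data were seen, 10 higher and 1 lower. An adjusted p under 0.1 gave 3 higher. With 1 library left out, edgeR called between 0 and 3 higher. DESeq2 with 1 library left out, also added later, called between 2 and 13 higher (13 without rWQS029, 10 without rWQS045, 4 without rWQS019 and 2 without rWQS042) and 4 lower without rWQS029, and at an adjusted p under 0.1 it called 1 lower. Of its 9 calls, 8 were also made by the likelihood ratio test. The cause of these differences was not tested.

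Over the members that each fit's own filter kept, the median log2 fold change was between -0.063 (without rWQS029) and 0.56 with 1 library left out (up to 0.62 over the members of the fit with all libraries), and between 0.21 and 0.45 under the other settings. Settings were compared gene by gene for 42 of the named genes. Tissue markers, fbxa-75 and genes named after their values were seen, such as fbxa-14, were not among them. Of these 42, 7, none of them called with all 4 libraries, changed sign with 1 library left out. Their log2 fold changes in edgeR and DESeq2 were then as follows. Without rWQS029, fbxa-65 was at -0.15 and -0.12 and skr-3 at -0.13 and -0.094. Without rWQS045, fbxa-64 was at 0.014 and 0.0058, fbxa-74 at 0.26 and 0.26, cul-1 at -0.072 and -0.079 and cul-3 at -0.048 and -0.055. Without rWQS019, fbxa-65 was at -0.20 and -0.20. Without rWQS042, fbxa-64 was at 0.22 and 0.25 and set-25 at 0.014 and 0.051.

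No paired analysis was possible because the count columns carry no replicate number. Leaving out members with near-identical proteins was not run, since no protein sequences were used here. With 2 libraries per genotype, many calls changed when 1 library was left out, which left a lone library in that genotype. The filter of edgeR left 54 members untested, with at most 199 counts over the 4 libraries, and DESeq2 gave 6 of these an adjusted p, none under 0.05.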
